A study of Mus musculus with 6 samples.

Results

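NRF2, the transcription factor encoded by Nfe2l2, and a group of antioxidant genes were examined in the aortic arch of mice that carried wild-type or Mir21-deficient bone marrow. The group held 10 genes, taken as every non-control probe that the scanner files name Nfe2l2, Keap1, Nqo1, Hmox1, Gclc, Gclm, Txnrd1, Srxn1, Sod2 or Cat. These were 10 of the 34821 distinct names on the array and 12 of its 55681 probes, with 2 probes each for Hmox1 and Cat and 1 for each other gene. The members were picked by name, with earlier results of these data known.

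Both groups were female C57BL/6 recipients of the Mir21+/+ genotype. They had been irradiated with 2 doses of 5 Gy within 4 hours and reconstituted with Mir21+/+ marrow (BM Mir21 WT, 3 mice) or Mir21–/– marrow (BM Mir21 KO, 3 mice). A high-fat diet began 3 weeks after irradiation and lasted 12 weeks, and total RNA of each arch was read on 1 single-colour array. For the age of the mice, the sources used here give no value. Resident arch cells in both groups were Mir21+/+, so the genotype differed only in the transplanted marrow and its descendants. The array holds 0 probes named Mir21 or Mir21a, and the genotype could not be checked on it. Arches without transplantation, irradiation or high-fat feeding were not analysed here.

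NRF2 is held in the cytoplasm by KEAP1, which presents it for ubiquitination and destruction. Oxidants and electrophiles modify KEAP1, and NRF2 then accumulates, enters the nucleus and binds antioxidant response elements together with small MAF proteins. In the vessel wall its targets take part in glutathione synthesis, thiol reduction and the breakdown of haem, and macrophages of lesions are among the cells that use them.

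Levels below are log2 processed signals relative to the 75th percentile of the array, and differences are KO minus WT on that log2 scale. All 12 probes were well above background on all 6 arrays, and each rests on 1 spot per array. No member of the group passed the test between the marrow genotypes. By limma with Benjamini-Hochberg adjustment over 38323 tested probes, 0 of the 12 probes passed an adjusted p of 0.05, against 1 of all tested probes (0.00261%), and 0 of the 12 had an unadjusted p under 0.05, against 8.71% of all tested probes (4.27% lower and 4.45% higher with KO marrow). Adjusted p-values of the members ran from 0.61 to 0.98. The mean was lower with KO marrow at 9 of the 12 probes, and so was that of 46.8% of all tested probes. At the brighter probe of each gene the median difference was -0.07, beside 0.02 over all tested probes. That median was 0.02 without KO replicate 1, -0.15 without WT replicate 1 and -0.16 without KO replicate 2.

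**Figure D1:**
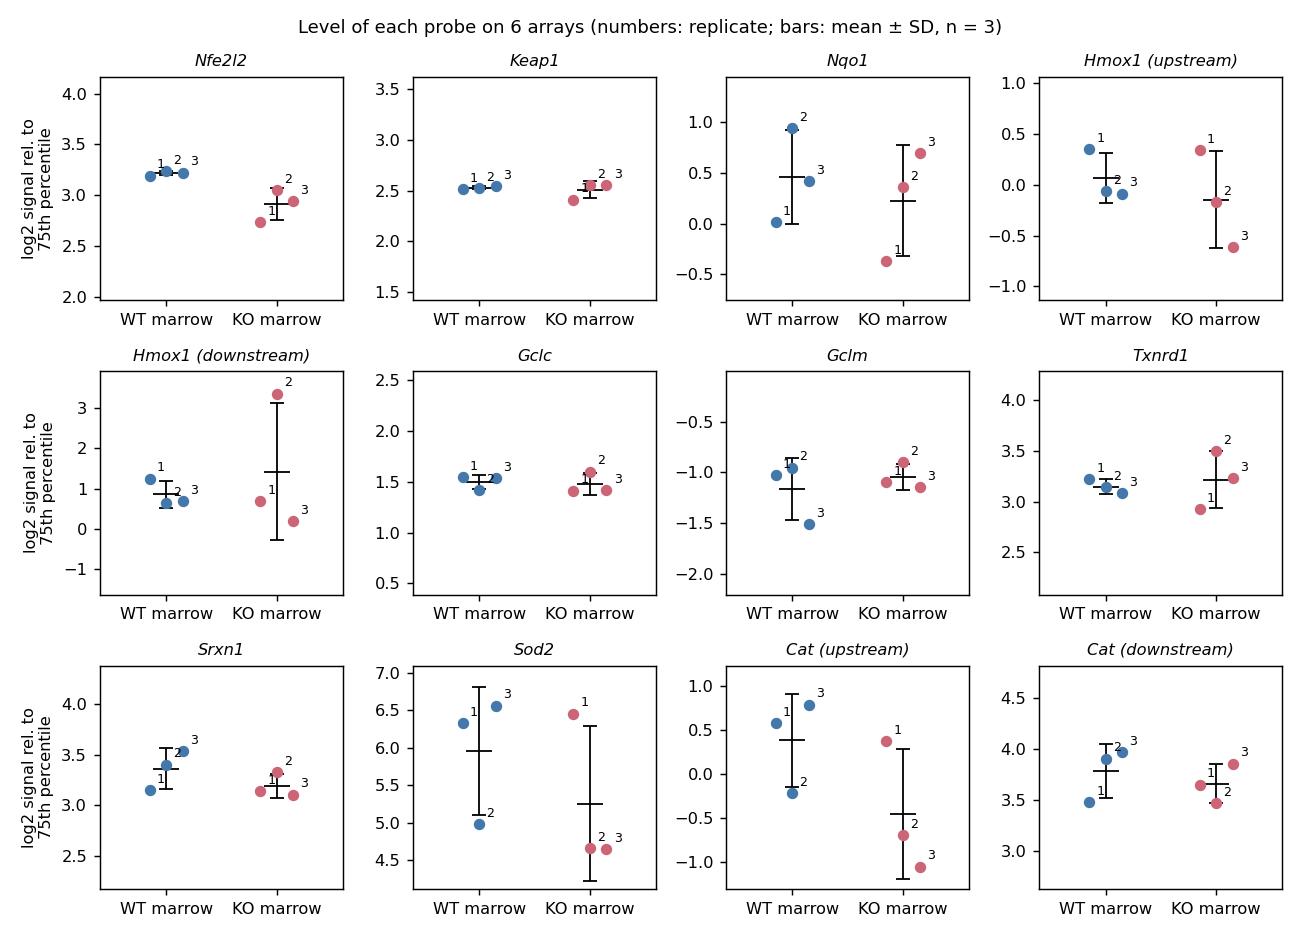
Level of each of the 12 probes on the 6 arrays, as log2 signal relative to the 75th percentile of the array (vertical axis), for WT and KO marrow. Each point is 1 mouse with its replicate number, and bars are mean ± SD (n = 3). The groups overlap in every panel but that of Nfe2l2, and replicate 2 with KO marrow stands far above the others at the downstream Hmox1 probe.

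Nfe2l2, which encodes NRF2 itself, was the only member whose groups did not overlap. Its level was 3.19, 3.24 and 3.22 on the WT arrays and 2.74, 3.05 and 2.94 on the KO arrays. All KO arrays thus lay below all WT arrays, as did those of 6.14% of all tested probes. The means were 3.22 ± 0.02 and 2.91 ± 0.16 (SD, n = 3 per group), which made the transcript 1.24-fold lower with KO marrow. The difference of -0.31 ± 0.15 (SE) did not pass (limma, adjusted p = 0.62), and its 95% interval ran from -0.67 to 0.05. Over all 15 alternatives tried the sign of this difference was kept, with adjusted p from 0.45 to 0.999942 by limma. With the mean of 20 adipocyte markers on each array as a covariate, the difference was -0.41 (limma, unadjusted p = 0.038, adjusted p = 0.52). The probe lies on chromosome 2 of mm9 at 75513771 to 75513830.

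Keap1, the repressor of NRF2, was nearly level. It read 2.51, 2.53 and 2.54 with WT marrow and 2.41, 2.55 and 2.56 with KO marrow. KO replicate 1 was the lowest of the 6 arrays and the other KO arrays were the highest. The difference was -0.02 with a 95% interval from -0.36 to 0.31 (limma, adjusted p = 0.98), and it was 0.026 without KO replicate 1. The 60-base probe covers positions 21035292 to 21035732 of chromosome 9, a span of 441 bases.

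The element that NRF2 recognises has the core TGACNNNGC, and it was searched on both strands of RefSeq promoter windows of GRCm38.p6, from 250 bases before to 50 bases after each gene's start. Windows were at hand for 8 members, all but Hmox1 and Gclc. Of these, 4 held a match in at least 1 window, against 14% of the 27025 genes with a window. The windows of Keap1, Nqo1, Sod2 and Cat held none of these letters in this order. The 4 matches are shown as matches of letters only. Binding of NRF2 to them was not measured, and sequence outside the windows was not searched. Each is given as 30 bases in the direction of transcription with the match in capitals. The match starts with TGAC in that direction in Nfe2l2 and on the opposite strand in the other genes.
Nfe2l2, match starting at -240 from the gene's start, chr2:75704884-75704913, minus strand: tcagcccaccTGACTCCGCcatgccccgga
Gclm, match starting at -134, chr3:122245413-122245442, plus strand: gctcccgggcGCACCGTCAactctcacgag
Txnrd1, second of its 3 windows, match starting at -92, chr10:82859104-82859133, plus strand: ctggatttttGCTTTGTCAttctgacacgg
Srxn1, match starting 28 bases after the start, chr2:152105542-152105571, plus strand: gcagtgggcaGCTAGGTCAgagtgagacac
Genes with and without the match both stayed below the test's threshold. The 4 with it had differences of -0.31 for Nfe2l2, 0.12 for Gclm, 0.07 for Txnrd1 and -0.17 for Srxn1.

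The glutathione arm of the NRF2 programme showed small differences. Gclc encodes the catalytic subunit of glutamate-cysteine ligase, the rate-limiting enzyme of glutathione synthesis. Its level was 1.55, 1.42 and 1.53 with WT marrow and 1.41, 1.60 and 1.42 with KO marrow. The highest and the lowest of the 6 values both belonged to KO arrays. The difference was -0.02, with an interval from -0.37 to 0.33, and it was -0.085 without KO replicate 2 and 0.0085 without KO replicate 1. Gclm, the modifier subunit of the same ligase, read -1.03, -0.95 and -1.51 with WT marrow and -1.10, -0.90 and -1.15 with KO marrow. Here WT replicate 3 was the lowest array and the other values lay within a narrow band. The difference was 0.12, with an interval from -0.34 to 0.58, and it was -0.06 without that array. The Gclc probe lies on chromosome 9 at 77641296 to 77641355. The Gclm probe is placed on chromosome 3 from 121962174 to 121964809, a span of 2636 bases for 60 probe bases.

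The groups overlapped at both thiol-reducing enzymes. Txnrd1, the cytosolic thioredoxin reductase, read 3.22, 3.14 and 3.08 with WT marrow and 2.93, 3.50 and 3.23 with KO marrow. The KO arrays spanned the WT range on both sides, and the SD was 0.28 against 0.07. The difference was 0.07 with an interval from -0.37 to 0.50, and it was -0.07 without KO replicate 2. Srxn1 encodes sulfiredoxin, which restores over-oxidised peroxiredoxins. Its level was 3.15, 3.40 and 3.54 with WT marrow and 3.14, 3.33 and 3.104 with KO marrow. Its highest values, on WT replicates 2 and 3, lay above all KO arrays, while WT replicate 1 matched the lower KO arrays. The difference was -0.17 with an interval from -0.57 to 0.23. It was negative under all 15 alternatives, with -0.083 without WT replicate 3 and -0.28 without WT replicate 1. The Txnrd1 probe lies on chromosome 10 at 82360230 to 82360289 and the Srxn1 probe on chromosome 2 at 151937009 to 151937068.

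Nqo1, the quinone reductase commonly read as an index of NRF2 activity, varied among mice of one group more than between groups. It read 0.01, 0.94 and 0.42 with WT marrow and -0.37, 0.36 and 0.69 with KO marrow. KO replicate 1 was the lowest and WT replicate 2 the highest of the 6. The means were 0.46 ± 0.47 and 0.23 ± 0.54 (SD, n = 3 per group), a difference of -0.23 with an interval from -1.01 to 0.55. It was 0.069 without KO replicate 1 and 0.011 without WT replicate 2, but -0.46 without KO replicate 3 and -0.45 without WT replicate 1. With the adipocyte mean of each array as a covariate it was -0.74 (limma, unadjusted p = 0.025, adjusted p = 0.49). The probe lies on chromosome 8 at 109912440 to 109912499.

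**Figure D2:**
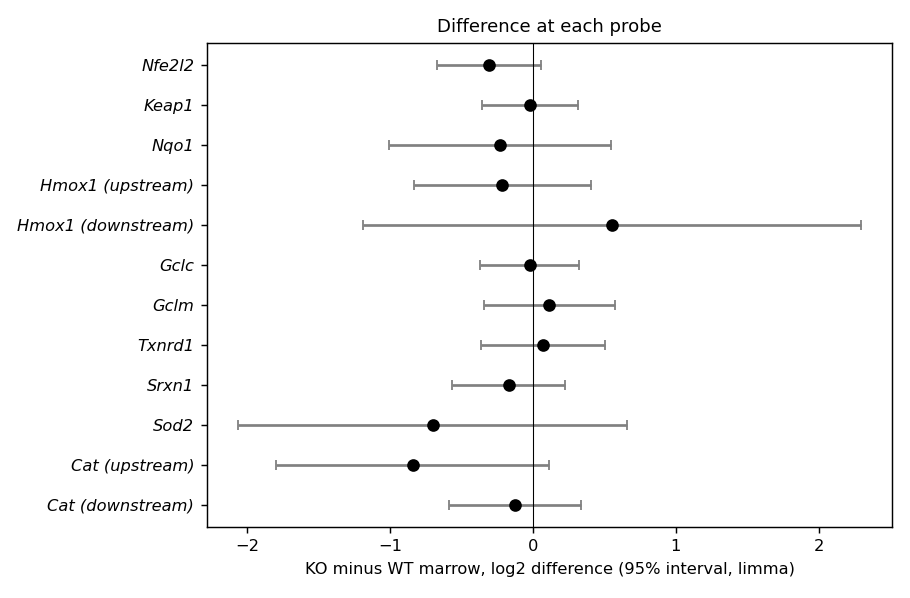
KO minus WT log2 difference at each of the 12 probes (horizontal axis), with points for the limma estimate and bars for its 95% interval from 3 arrays per group. Each interval spans 0, from the narrow one of Keap1 (-0.36 to 0.31) to that of the downstream Hmox1 probe (-1.19 to 2.30).

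Hmox1 encodes the inducible haem oxygenase, which opens the haem ring to yield biliverdin, iron and carbon monoxide, and its 2 probes disagreed on 1 array. They lie on chromosome 8 of mm9, the upstream one at 77620797 to 77620856 and the downstream one at 77624207 to 77624266, with starts 3410 bases apart. Both are placed on the plus strand under 1 transcript. The first 30 of their 60 bases are given because the probes differed on that array. The cause of the disagreement was not tested.
Hmox1, upstream probe: atagagcgcaacaagcagaacccagtctat
Hmox1, downstream probe: atggttgtaagcatccatgttgactgacca
The downstream probe read 1.25, 0.64 and 0.69 with WT marrow and 0.69, 3.37 and 0.19 with KO marrow. KO replicate 2 stood 2.12 above the highest of the other arrays, while the other KO arrays lay within or below the WT range. The upstream probe read 0.35, -0.06 and -0.09 with WT marrow and 0.34, -0.17 and -0.61 with KO marrow. It did not share the high value of KO replicate 2, and its lowest array was KO replicate 3. The downstream level minus the upstream level was 0.90, 0.71 and 0.78 on the WT arrays and 0.35, 3.53 and 0.81 on the KO arrays.

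On KO replicate 2 the processed signal of the downstream probe was 3981 and that of the upstream probe 344. On the other arrays the downstream signal ran from 273 to 956. The spot carried no outlier or saturation flag, with a median over its pixels of 4266 and an SD of 327. The difference between groups was 0.55 at the downstream probe, with an interval from -1.19 to 2.30, and -0.42 without KO replicate 2. It was -0.21 at the upstream probe, with an interval from -0.84 to 0.41, and 0.02 without KO replicate 3. Neither passed (limma, adjusted p = 0.85 and 0.84), and the direction at both rests on 1 array.

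Over all 38323 tested probes, 3 stood at least as far above every other array on KO replicate 2 as the downstream Hmox1 probe did. The others were probes of Spp1, the secreted matrix protein osteopontin, and of Gdf3, a growth factor of the TGF-beta family. They are named here because their values were seen. The same gap was exceeded or met by 7, 7 and 21 probes on WT replicates 1, 2 and 3, by 0 on KO replicate 1 and by 1 on KO replicate 3. Spp1 read 1.75, -1.37 and -1.40 with WT marrow and -0.33, 4.29 and 0.25 with KO marrow. Gdf3 read -2.66, -2.98 and -3.29 with WT marrow and -1.83, 0.37 and -2.82 with KO marrow. Gpnmb, a glycoprotein abundant in lipid-laden macrophages, read 5.14 on the same KO array and between 0.64 and 3.26 on the others. It was picked from the probes that stood highest above the rest on that array, so its high value there is no result. The 12 measured macrophage and monocyte markers averaged 0.23, -0.50 and -0.18 on the WT arrays and 0.01, 0.97 and -0.53 on the KO arrays, as deviations from the mean of the 6 arrays. They too were highest on KO replicate 2, and all 12 were well above background on all 6 arrays. Lgals3 and Itgam, the markers with the highest levels, read 6.44 and 6.62 there, against 4.22 to 5.44 and 6.13 to 7.26 on the other arrays, so that Itgam did not stand out on that array. The part of macrophage content in the Hmox1 value was not tested. In a whole arch, a change in the number of cells of a type and a change in RNA per cell cannot be told apart.

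**Figure D3:**
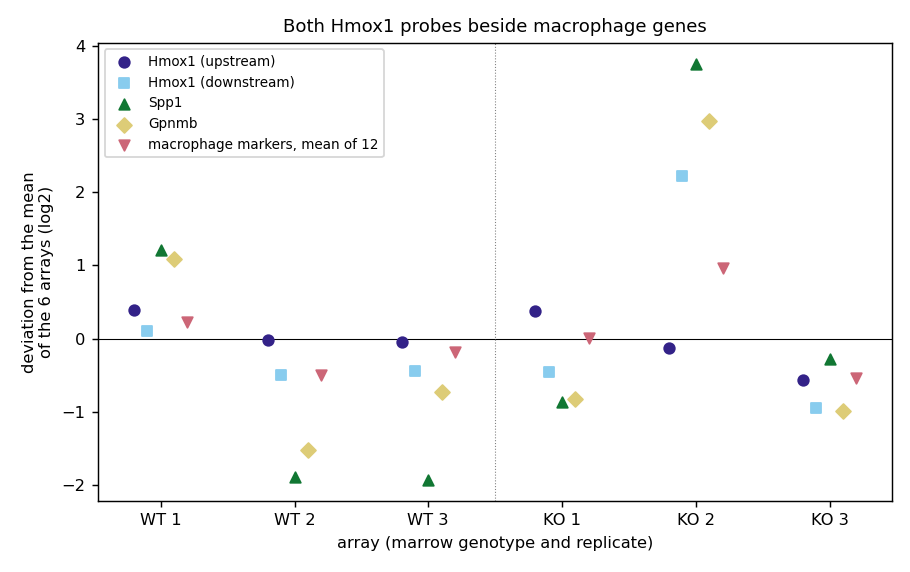
Deviation of both Hmox1 probes, Spp1, Gpnmb and the mean of 12 macrophage and monocyte markers from their own mean over the 6 arrays (vertical axis, log2), by array. On KO replicate 2 the downstream Hmox1 probe (level 3.37), Spp1 (4.29) and Gpnmb (5.14) are at their highest, whereas the upstream Hmox1 probe (-0.17) is not. Spp1 and Gpnmb were chosen for being high on this array.

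Sod2 removes superoxide in mitochondria and catalase hydrogen peroxide in peroxisomes, and the Sod2 probe and the upstream Cat probe varied widely among mice of one group. Sod2 read 6.33, 4.98 and 6.56 with WT marrow and 6.46, 4.66 and 4.65 with KO marrow. The arrays formed a high set of 3 and a low set of 3, and each set held arrays of both genotypes. The means were 5.96 ± 0.85 and 5.26 ± 1.04 (SD, n = 3 per group), 1.63-fold lower with KO marrow. The difference of -0.70 ± 0.58 (SE) did not pass (limma, adjusted p = 0.76), and its interval ran from -2.06 to 0.66. It was -1.30 without KO replicate 1 and -1.19 without WT replicate 2, but -0.40 without WT replicate 3, KO replicate 2 or KO replicate 3. The Sod2 probe lies on chromosome 17 at 13208074 to 13208133.

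Cat, encoding catalase, is covered by 2 probes on chromosome 2, of which the upstream one spans 103297086 to 103300428 and the downstream one 103294487 to 103294546 on the minus strand. The upstream probe thus spreads 60 bases over 3343 positions. Their first 30 bases are given because the probes differed in their pattern over the arrays.
Cat, upstream probe: aacagtgctaatgaagacaatgtcactcag
Cat, downstream probe: tggtctggtatatatacaatacaacacaca
The upstream probe read 0.58, -0.21 and 0.79 with WT marrow and 0.37, -0.69 and -1.05 with KO marrow. The arrays low in Sod2, WT replicate 2 and KO replicates 2 and 3, were the low ones here as well. It was 1.79-fold lower with KO marrow, with a difference of -0.84 ± 0.41 (SE) and an interval from -1.80 to 0.11. This was the member with the smallest p (limma, unadjusted p = 0.076, adjusted p = 0.61). Without KO replicate 1 its difference was -1.26 and its adjusted p 0.15, the smallest over the 15 alternatives, which reached 0.999942 (limma). The downstream probe, the brighter of the pair, read 3.48, 3.90 and 3.97 with WT marrow and 3.65, 3.47 and 3.86 with KO marrow. Its order over the arrays was another one, with KO replicate 3 among the higher values. Its difference was -0.13 ± 0.20 (SE), with an interval from -0.59 to 0.33, and it was -0.28 without WT replicate 1 and -0.032 without KO replicate 2.

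Fat-cell and mitochondrial transcripts were on average low on the same KO arrays as Sod2 and the upstream Cat probe. The 20 white and brown adipocyte markers averaged 0.95, 0.21 and 1.14 on the WT arrays and 1.23, -1.17 and -2.37 on the KO arrays, as deviations from the 6-array mean, and all 20 were well above background on all 6 arrays. Of these markers, 18 had a lower and 2 a higher mean with KO marrow, where 46.8% of all tested probes had a lower one. Fabp4, the fatty acid carrier of adipocytes, read 8.55, 7.70 and 8.75 with WT marrow and 8.33, 6.16 and 5.14 with KO marrow. The 20 respiratory chain and ATP synthase genes averaged 0.59, -0.30 and 0.73 on the WT arrays and 0.59, -0.78 and -0.84 on the KO arrays. With the adipocyte mean of each array as a covariate, the difference was 0.25 for Sod2 and -0.15 for the upstream Cat probe. With this covariate 2 of the 12 member probes, those of Nfe2l2 and Nqo1, had an unadjusted p under 0.05 and 0 an adjusted one (limma). In the same fit, 3563 of all 38323 tested probes had such an unadjusted p and 1 such an adjusted one. The part of fat content in the Sod2 and Cat values was not tested.

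**Figure D4:**
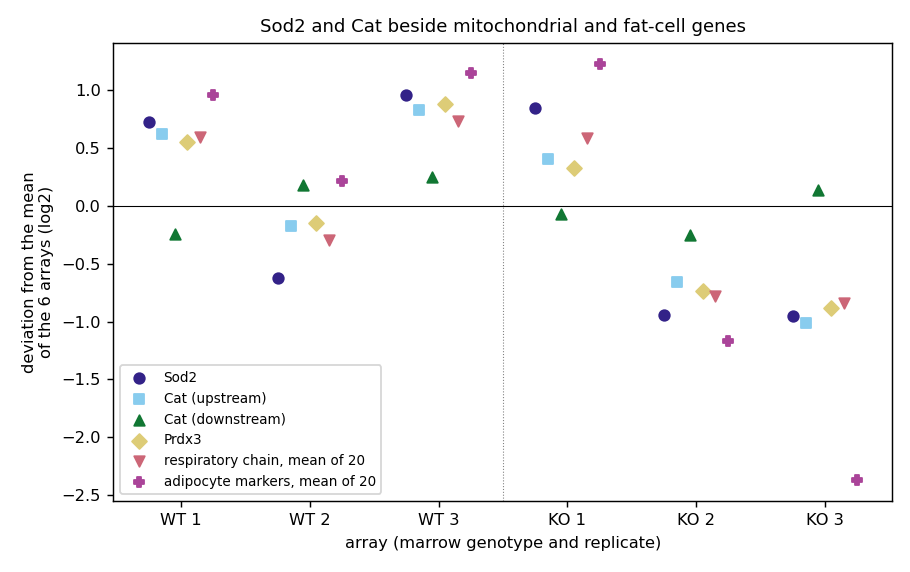
Deviation of Sod2, both Cat probes, Prdx3 and the means of 20 respiratory chain genes and 20 adipocyte markers from their own mean over the 6 arrays (vertical axis, log2), by array. Sod2, the upstream Cat probe and Prdx3 lie below 0 on WT replicate 2 and KO replicates 2 and 3, as the respiratory chain mean does (-0.30, -0.78 and -0.84), while the downstream Cat probe does not follow.

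The wider pathway was read from further lists, and 0 genes of any of them passed the adjusted test (limma). Their counts of higher and lower means stand beside 46.8% of all tested probes with a lower mean with KO marrow. Of 15 regulators and relatives of NRF2, 10 had a higher and 5 a lower mean with KO marrow, with a median of 0.08 that was 0.032 without WT replicate 3 and 0.13 without KO replicate 1, and 1 had an unadjusted p under 0.05, where 8.71% of all tested probes did. That was Crebbp, a coactivator acetyltransferase, at 0.48 ± 0.18 (log2 difference ± SE), with 3.91, 4.26 and 3.96 on the WT arrays and 4.47, 4.34 and 4.74 on the KO arrays. All its KO arrays lay above all WT arrays, as did those of 7.59% of tested probes. Ep300, its close relative, had the opposite sign at -0.34 ± 0.16. It read -0.53, -0.69 and -0.48 on the WT arrays and -1.06, -0.72 and -0.94 on the KO arrays. All KO arrays of Ep300 lay below all WT arrays, as did those of 6.14% of tested probes. Of the 15 regulators, 1 had all KO arrays higher and 1 all lower. Bach2, a repressor that competes for NRF2 sites, read 0.32 ± 0.25.

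Of 30 further NRF2 target genes, 27 were tested, with 12 higher, 15 lower and a median of -0.04. Gstm3, a glutathione S-transferase, read 0.53 ± 0.21 (log2 difference ± SE), with KO arrays at 3.69, 3.99 and 3.74 and WT arrays at 3.20, 3.64 and 3.01. Me1, the cytosolic malic enzyme that supplies NADPH and is also abundant in fat, read -0.66 ± 0.26, with 5.11, 4.77 and 5.60 on the WT arrays and 4.87, 4.29 and 4.34 on the KO arrays. It was low on KO replicates 2 and 3, as the mean of the fat-cell markers was. Ephx1, the microsomal epoxide hydrolase, read -0.40 ± 0.21. Gstm3 and Me1 were the list's members with an unadjusted p under 0.05, 1 in each direction, 2 of 27 beside 8.71% of all tested probes. Glutathione S-transferases of one class resemble each other, and sharing of signal between their probes was not tested.

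Of the 30 other antioxidant enzymes, 20 had a lower mean with KO marrow and 10 a higher one, with a median of -0.18. Over all tested probes, 46.8% had a lower mean. The list had 1 gene with an unadjusted p under 0.05, beside 8.71% of all tested probes. This was Prdx6, a peroxiredoxin that reduces phospholipid hydroperoxides. It had a mean of 5.64 ± 0.08 with WT and 5.08 ± 0.23 with KO marrow (SD, n = 3 each), a ratio of 1.48. Its WT arrays read 5.66, 5.56 and 5.71 and its KO arrays 5.29, 4.84 and 5.10, and its adjusted p was 0.47 (limma). All its KO arrays lay below all WT arrays, as did those of 6.14% of tested probes. Of the 30 enzymes, 3 had all KO arrays lower and 1 all higher, beside 6.14% and 7.59% of all tested probes. Prdx6 had 4 tested probes, and the values are those of the brightest. Prdx3, the peroxiredoxin of mitochondria, read 3.30, 2.60 and 3.62 with WT marrow and 3.07, 2.01 and 1.86 with KO marrow, a difference of -0.86 ± 0.38 (SE). Msrb2, a mitochondrial methionine sulfoxide reductase, read 2.59, 2.18 and 2.76 with WT marrow and 2.43, 1.71 and 1.57 with KO marrow, a difference of -0.61 ± 0.27 (SE). Both were low on WT replicate 2 and on KO replicates 2 and 3, the arrays on which Sod2 was low.

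Among sources of oxidants, 18 of 19 listed genes were tested, with 11 higher, 7 lower and a median of 0.22. That median was 0.096 without KO replicate 2, 0.13 without KO replicate 1, 0.15 without WT replicate 3 and 0.32 without KO replicate 3. Nox1, a catalytic NADPH oxidase subunit, read -1.18, -0.34 and -0.89 with WT marrow and -0.47, -0.16 and 0.17 with KO marrow, a difference of 0.65 ± 0.26 (SE) with overlapping groups. Noxo1, its organiser subunit, read -0.04, 0.54 and 0.20 with WT marrow and 0.72, 0.70 and 0.71 with KO marrow, a difference of 0.48 ± 0.19 (SE). All its KO arrays lay above all WT arrays, as did those of 7.59% of tested probes. Of the 18 genes, 1 had all KO arrays higher and 0 all lower, beside 7.59% and 6.14% of all tested probes. Cybb, the NADPH oxidase subunit of phagocytes, read 0.60 ± 0.29. Nox1 and Noxo1, 2 of 18, had an unadjusted p under 0.05, beside 8.71% of all tested probes, and adjusted p was 0.56 and 0.55 (limma).

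Genes of haem and haemoglobin capture, haem breakdown and iron handling gave 6 higher and 7 lower of the 13 tested, and 0 with an unadjusted p under 0.05. Their median was -0.04, and it was 0.019 with another background correction (normexp) and 0.069 without KO replicate 3. Blvrb, Ftl1, Fth1 and Slc48a1 were also among the further NRF2 targets. The median of -0.04 in both lists is the value of the same Blvrb probe, so the lists are not separate readings. Hp, the haemoglobin-binding protein haptoglobin, which adipocytes also make, read 6.36, 5.37 and 6.27 with WT marrow and 7.07, 4.45 and 3.30 with KO marrow. Tfrc, the transferrin receptor, read -0.39 ± 0.25 (log2 difference ± SE) and the metal carrier Slc11a2 0.17 ± 0.16.

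Markers of further cell types were read as well, from lists chosen with earlier results of these data known. All 12 contractile smooth muscle markers, 12 endothelial and 10 fibroblast markers were well above background on all 6 arrays, as were 10 cardiac markers and 7 of 11 immature thymocyte markers. Smooth muscle markers averaged between -0.26 and 0.02 on the WT arrays and between -0.28 and 0.46 on the KO arrays, as deviations. Cardiac markers ranged from -0.65 to -0.10 and from -0.95 to 1.40, thymocyte markers from 0.31 to 0.40 and from -0.94 to 0.45, endothelial markers from 0.14 to 0.26 and from -0.52 to 0.11, and fibroblast markers from -0.36 to 0.08 and from -0.19 to 0.31. Erythroid markers ranged from -1.09 to 0.65 and from -0.65 to 0.80. Between 66.4% and 74.4% of spots per array were well above background, with the lowest share on KO replicate 3. All arrays shared 1 slide and 1 scan, with WT arrays in slide row 1 and KO arrays in row 2, so that slide row and genotype cannot be told apart.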

How the data were processed

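RNA of 6 aortic arches was measured on 1-colour Agilent arrays, labelled with Cy3 from 100 ng of RNA per the labels. The authors' scanner software, Feature Extraction 10.7.3.1, gave each spot an intensity with background subtracted, spatial trends removed and low values replaced by a surrogate, per the file headers. No normalization between arrays had been applied. The intensity values in the deposited series table differed from these by at most 0.497%. Coordinates are those of the files on mm9, and exons, introns and untranslated regions were not analysed here.

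The log2 intensity minus the array's 75th percentile was averaged over the spots of a probe, leaving out feature outliers. Probes well above background on all 3 arrays of a group were tested (38323) with lmFit and eBayes of limma 3.58.1 in R 4.3.3, two-sided, tested on simulated data first. The members and lists were chosen with earlier results of these data known, so no list was tested as a set. Where a gene of a list had several probes, the tested one with the highest mean was used, and the others are not given. Among the genes printed, this holds for Prdx6 (4 tested probes), Me1 and Itgam (3 each), and Crebbp, Ephx1, Tfrc and Slc11a2 (2 each). Named genes were all members, the 3 genes of smallest p per pathway list and the 2 brightest of marker lists, of which some are printed. Spp1, Gdf3 and Gpnmb fall outside this rule and were chosen after their values were seen. The samples were not treated as paired by their label numbers. Deviations from the group means of same-numbered arrays correlated at 0.12, 0.05 and -0.28, and those of differently numbered arrays between -0.37 and 0.39. With 3 arrays per group, such values cannot show whether the numbers mark pairs. Sequences come from the files' probes and RefSeq promoter windows of GRCm38.p6. The design text gives 3 mice per group.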

Additional observations from a re-analysis of the deposited data

How the results depend on the processing

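Under all 15 alternatives 0 of the 12 probes passed the adjusted test (limma). Signs of all 12 were kept with normexp, quantile normalization, median scaling, the series table, no filter on dim probes, the replicate block and a trended robust variance. The count over all tested probes was 1, and it was 4 with normexp, 2 with median scaling, 2 with a trended robust variance, 2 without KO replicates 2 and 3 together, and 1 to 2 when single arrays were left out. With the adipocyte covariate the difference was 0.17 for upstream Hmox1, -0.085 for Txnrd1 and 0.25 for Sod2, and the regulators' median was -0.065. It also moved Nqo1 from -0.23 to -0.74 and Nfe2l2 from -0.31 to -0.41, and the antioxidant enzymes' median from -0.18 to -0.074. Without KO replicates 2 and 3 together, which leaves 1 KO array and takes the spread from the WT arrays alone, Nqo1 was -0.83 and Nfe2l2 -0.48, and the difference was 0.27 for upstream and -0.17 for downstream Hmox1, -0.22 for Txnrd1 and 0.50 for Sod2. The arrays left out were those seen to be low in Sod2, so that this setting tests nothing about it. The medians there were -0.16 for the members, -0.093 for the regulators and -0.035 for the other antioxidant enzymes. When single arrays were left out, differences ran from -0.046 to 0.026 for Keap1, -0.46 to 0.069 for Nqo1, -0.46 to 0.017 for upstream and -0.42 to 1.16 for downstream Hmox1, -0.085 to 0.0085 for Gclc, -0.058 to 0.22 for Gclm and -0.071 to 0.21 for Txnrd1, and from -0.28 to -0.083 for Srxn1 and -0.28 to -0.032 for downstream Cat. The medians ran from -0.16 to 0.017 for the members and -0.077 to 0.092 for the further NRF2 targets, 0.032 to 0.13 for the regulators and 0.096 to 0.32 for the oxidant sources. With the replicate block the smallest adjusted p of a member was 0.62, and the block changed no call. A slide block was not run, since all arrays shared 1 slide. The causes of these shifts were not tested. The 3 arrays per group limit precision, with standard errors of the members between 0.14 and 0.75.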
